A study of Rattus norvegicus with 18 samples.

Results

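The motile cilium and axoneme genes described here are the 66 genes whose platform symbol is Foxj1 or starts with Cfap, Dnah, Dnai, Dnaaf, Rsph, Spag, Tekt, Drc or Saxo followed by a digit. The rule reads symbols only. Each had 1 probe set, and together they are 66 of the 23188 gene probe sets on the array, of which 15049 carry exactly 1 symbol. By their known roles, 61 are counted as axoneme or cilium genes. The other 5 members (Spag4, Spag5, Spag7, Spag9 and Spag11a) are sperm associated antigens that share the prefix and not the role.

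The arrays (Rat Clariom S Pico) were run on RNA of tissue punches from ovariectomized (OVX) female Sprague-Dawley rats. Their age is given as 90 days, in the methods at the ovariectomy, which preceded the injections. EB-treated rats received 10 µg estradiol benzoate (EB) in 0.1 mL oil on Day 1 and again on Day 2, Oil-treated rats received 0.1 mL oil alone, and tissue was taken on Day 4, so that all groups share the ovariectomy and the vehicle. There were 3 EB and 3 Oil samples from each of 3 regions, the arcuate nucleus (ARC) and paraventricular nucleus (PVN) of the hypothalamus and, in the brainstem, the solitary tract's nucleus (NTS), 18 arrays in 6 groups. Per the methods the rats were 3 with EB and 3 with Oil, and ARC, PVN and NTS were punched from their brains, so that the regions share animals. The labels number the samples as biological replicates and do not say which samples of different regions came from 1 rat, so the 18 arrays were fitted as separate samples. A punch is bulk tissue, so fewer ciliated cells and less RNA per cell cannot be told apart in any value below.

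Motile cilia beat because axonemal dynein arms slide microtubule doublets past each other. Radial spokes, a central apparatus and the nexin-dynein regulatory complex control that sliding, tektins and other microtubule inner proteins line the doublets, and cytoplasmic assembly factors build the dynein arms before they enter the cilium. In the adult brain these cilia stand on the ependymal cells that line the ventricles, where they move cerebrospinal fluid, and Foxj1 and the RFX factors switch on their genes. The ARC and the PVN border the third ventricle, and the NTS lies under the fourth ventricle close to its choroid plexus.

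All values are log2 signal, on which a difference of 1 is a fold change of 2. The median gene probe set lay between 7.74 and 7.998 in the 18 arrays, and the middle value of the 23 background probe sets between 6.74 and 7.60. A value under that background median of its own array is called below background here. Of the 66 members, 17 were above background in all 18 arrays, 17 in none and 32 in some arrays, and an array had between 21 members (NTS Oil 3) and 48 members (ARC Oil 1, where that median was lowest) above it. Signals of different probe sets are not comparable as amounts of RNA, so levels are compared only within a gene.

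The largest class held 21 tektins and microtubule inner or associated proteins, Tekt1 to Tekt5, Cfap20, Cfap45, Cfap52, Cfap68, Cfap77, Cfap95, Cfap97, Cfap107, Cfap126, Cfap161, Cfap210, Cfap276, Saxo2, Saxo4, Saxo5 and Spag8. The 13 dynein assembly factors were Dnaaf1 to Dnaaf6, Dnaaf8 to Dnaaf11, Cfap298, Cfap300 and Spag1. The dynein arms themselves were represented by 5 intermediate chains (Dnai1, Dnai2, Dnai3, Dnai4 and Dnai7) and 1 inner arm heavy chain (Dnah1). There were 6 radial spoke genes (Rsph1, Rsph6a, Rsph9, Rsph10b, Rsph14 and Cfap206), 4 genes of the nexin-dynein regulatory complex (Drc1, Drc3, Drc7 and Drc12), 4 of the central apparatus (Cfap119, Spag6, Spag6l and Spag16) and the transcription factor Foxj1. A further 6 genes (Cfap36, Cfap157, Cfap20dc, Cfap97d1, Cfap410 and Cfap418) are named for cilia or flagella and were given no place in the axoneme.

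RFX factors bind the X-box, an imperfect inverted repeat found in front of many cilium genes, and the promoters are shown because Foxj1 and RFX sites are the known switches of this program. RefSeq promoters (build GRCr8, 250 bases before to 50 bases after the start) were found for 50 members. Not found were Cfap107, Cfap157, Cfap410, Cfap418, Cfap52, Dnaaf1, Dnaaf11, Dnai4, Foxj1, Rsph1, Saxo4, Saxo5, Spag1, Spag11a, Spag16 and Tekt5. The X-box, searched on both strands as its consensus, was present in 8 of the 50 promoters (16.0%), against 1.3% of 27457 promoters. A single arm of it, GTTGCCA, which can overlap an X-box, was present in 8 (16.0%, against 4.45% of all), the forkhead core TGTTTAC in 2 (4.0%, against 3.76%) and the palindromic estrogen response element in 0 of 50 (0.0255% of all). These counts describe letters in a fixed window and were not tested. The 30 bases around each of the 8 X-box matches follow, read 5′ to 3′ on the strand of the gene, with the match in capitals.
Spag6l: tgcggtcaGTTGCCCTGGAGACgtatacac
Dnaaf2: tcctgggtGTTACCATGGCAACaaagcacg
Dnaaf5: tagcgccgGTTCCCTTGGAGACaagcaacg
Dnaaf6: acaaagttGTTACCCAGGCAACagagcgac
Cfap298: gggtttcgGTTGCCCGGGCAACagctactt
Cfap20dc: gcccctcaGTTGCCTGGGCAACggctcagc
Spag6: gacctactGTTGCCGGGGGGACggcttcgt
Spag5: ctcattcgGTAACCGGGGAAACggagccac

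Of these 8 genes, 4 are dynein assembly factors (Dnaaf2, Dnaaf5, Dnaaf6 and Cfap298) and 2 are central apparatus genes (Spag6l and Spag6). The match in Spag6l began 64 bases before its start (chr11:97677768-97677797 for the bases shown, plus strand). The match in Dnaaf5 began 30 bases before its start (chr12:20606489-20606518, minus strand) and the match in Cfap298, which reads the same on both strands, began 231 bases before it (chr11:43677592-43677621, minus strand). Among the 13 genes called lower with EB in the ARC (below), no promoter was found for Cfap52, Saxo4 and Spag16. Cfap45, Cfap77, Cfap95, Cfap206, Dnai1, Drc7 and Tekt2 held neither an X-box nor the single arm. Spag6l held an X-box, and Cfap161 and Tekt1 held the single arm. A link of these letters to EB was not tested.
Cfap161: cctggtcgtcaTGGCAACgaagcacgctaa
Tekt1: cgttgcgtccgGTTGCCAtagtgaccgcag

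The single arm of Cfap161 lies on the opposite strand, 58 bases before the start (chr1:147177861-147177890, minus strand), and that of Tekt1 on the strand of the gene, 39 bases before it (chr10:57479142-57479171, minus strand).

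The mean of the members differed between arrays of 1 group. It was 8.14, 8.20 and 7.56 in ARC EB samples 1 to 3, against 8.29, 8.51 and 9.00 in ARC Oil samples 1 to 3. In the PVN it came to 8.46, 8.25 and 7.28 in EB samples, against 8.05, 8.50 and 8.04 in Oil samples, and in the NTS to 8.04, 7.51 and 8.39 in EB samples, against 8.11, 8.07 and 7.06 in Oil samples. The EB and Oil samples did not overlap in the ARC, in the PVN they overlapped with PVN EB 3 far under the rest, and in the NTS they overlapped with NTS Oil 3 lowest and NTS EB 2 next.

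**Figure D1:**
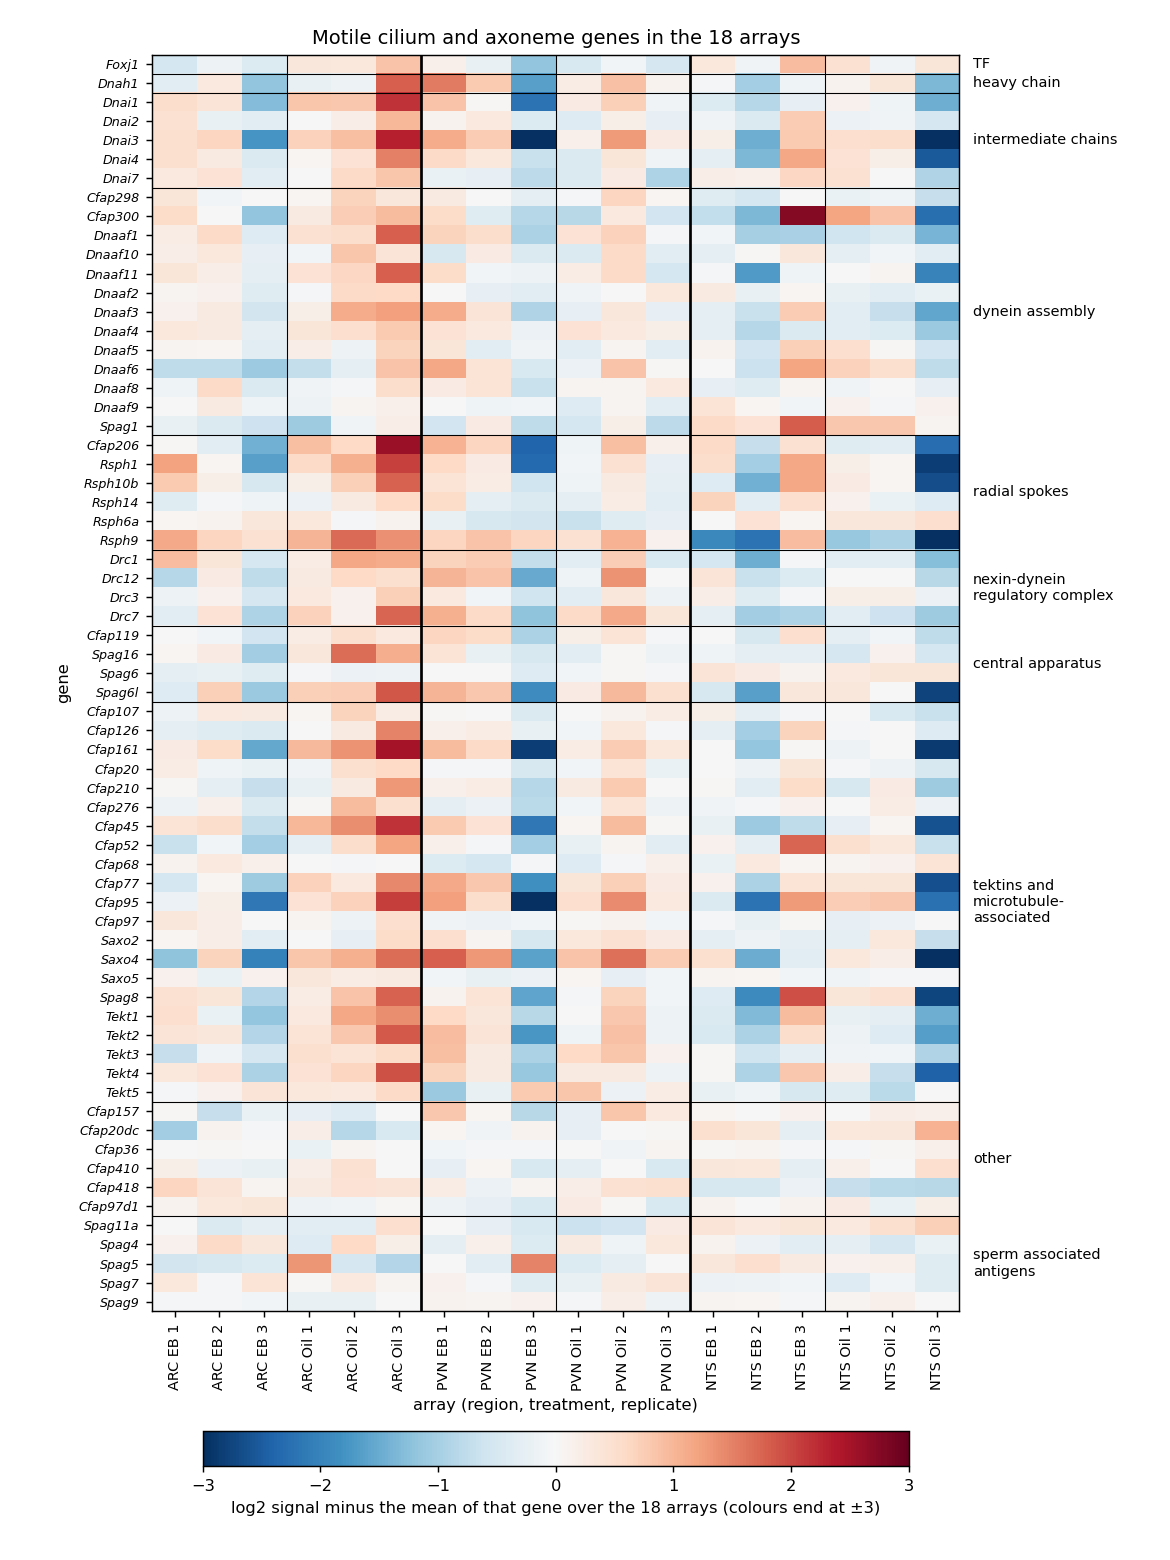
Log2 signal of the 66 genes (rows, grouped by role) in the 18 arrays (columns, EB left of Oil within each region), each as the difference from the mean of that gene over the 18 arrays. The columns ARC EB 3, PVN EB 3 and NTS Oil 3 are blue and ARC Oil 3 is red through most classes, while sperm associated antigens and the class labelled other are paler.

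The same array held the lowest value of most members within each region. Among the 6 ARC arrays, 44 of the 66 members were lowest in ARC EB 3, as were 15.8% of all gene probe sets. Among the PVN arrays, 46 members were lowest in PVN EB 3 (20.6% of all), and among the NTS arrays 43 were lowest in NTS Oil 3 (22.1% of all). At the other end, 42 members were highest in ARC Oil 3 (16.0% of all gene probe sets) and 32 in NTS EB 3 (21.6%), while in the PVN the highest value was shared between PVN EB 1 (24 members, 15.2% of all gene probe sets) and PVN Oil 2 (23 members, 18.5% of all). The spread was wide for a gene on this array. The median range over the 6 arrays of a region was 1.29 for the ARC values of the members, 1.13 for their PVN values and 1.23 for their NTS values, against 0.57, 0.56 and 0.57 for all gene probe sets in the same regions. A range over 2, or a fold change of 4, was seen in 34.8% of the members for the ARC, 24.2% for the PVN and 30.3% for the NTS, against 2.50%, 1.94% and 2.76% of all gene probe sets.

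The width of the range varied within and between classes. Over all 18 arrays, 16 members spanned more than 4 (Cfap45, Cfap77, Cfap95, Cfap161, Cfap206, Cfap300, Dnai1, Dnai3, Dnai4, Rsph1, Rsph9, Rsph10b, Saxo4, Spag6l, Spag8 and Tekt4), and each of them is a part of the axoneme or builds it. A span under 1 was seen in 11 members (Cfap36, Cfap68, Cfap97, Cfap97d1, Cfap410, Dnaaf2, Dnaaf9, Saxo5, Spag6, Spag7 and Spag9). Of these, Cfap68, Cfap97d1, Saxo5 and Spag6 were below background in all 18 arrays, so their narrow span does not show steady expression. Cfap36, which binds the ciliary GTPase Arl3, lay between 14.98 and 15.33 in every array. Spag9, a scaffold of JNK signalling, lay between 14.81 and 15.23. The median span over the 18 arrays was 4.65 for the 6 radial spoke genes and 4.01 for the 5 dynein intermediate chains, 2.73 for the nexin-dynein regulatory complex, 2.50 for the tektin class, 2.15 for the central apparatus, 1.90 for the assembly factors, 1.21 for the 6 other cilium genes and 1.09 for the 5 sperm associated antigens. The classes overlapped, with spans of 1.11 to 6.52 for the radial spoke genes, 0.59 to 6.70 for the tektin class and 0.82 to 5.0 for the assembly factors. The lowest spans of the first and second of these (Rsph14 and Saxo5) are of genes below background in every array. The class medians include such genes.

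Other lists of genes place this pattern. The 9 measured ependymal markers outside the rule (Tmem212, Sntn, Rarres2, Tppp3, Dynlrb2, Enkur, Meig1, Mia and Riiad1) averaged 8.23 in ARC EB 3, 7.75 in PVN EB 3 and 7.30 in NTS Oil 3, the lowest array of each region, and 8.08 or more in the other 15. In number, 5 of the 9 were above background in ARC EB 3, 4 in PVN EB 3 and 3 in NTS Oil 3, against 5 or 6 in the rest. The 35 other axoneme genes outside the rule, which share Dynlrb2 and Enkur with the markers, averaged 7.52 in ARC EB 3, 7.12 in PVN EB 3 and 7.01 in NTS Oil 3, again the lowest of each region. The 29 genes of intraflagellar transport and the primary cilium, which most brain cells carry, had a mean between 10.22 and 10.87 in the 18 arrays. The 7 measured regulators of motile ciliogenesis outside the rule (Rfx1, Rfx2, Rfx7, Tp73, E2f4, Ccna1 and Deup1) had a mean between 7.95 and 8.66. Single genes of both lists differed more than these means. Rpgrip1l of the first differed by 1.04 for ARC minus NTS, and Tp73 of the second by -1.50 for ARC minus PVN.

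Markers of other tissue also differed between the arrays. The 5 oligodendrocyte markers averaged 14.86 in PVN EB 3 and 15.61 in NTS Oil 3, the highest of their regions, and 14.00 in ARC EB 3, second to ARC Oil 1 (14.27). The 5 dorsal vagal neuron markers averaged 6.77 in NTS Oil 3, against 8.68 to 9.41 in the other NTS arrays. The 11 choroid plexus markers averaged 13.35 in NTS EB 3, 10.84 in NTS Oil 1 and 10.93 in NTS Oil 2, with 11, 10 and 11 of 11 above background, and between 5.99 and 7.22 in the other 15 arrays, with 1 to 5 above background. Midbrain dopamine and mammillary markers averaged 9.28 in ARC EB 2 and 8.34 in ARC EB 3, against 7.02 to 7.47 in the other ARC arrays, and 8.10 in PVN Oil 1 and 8.14 in PVN Oil 3, against 6.12 to 6.54 in the other PVN arrays. Paraventricular neuron markers averaged 10.04 in ARC Oil 1, against 7.05 to 7.53 in the other ARC arrays. Arcuate neuron markers averaged 8.68 in ARC EB 2, against 10.05 to 11.86 in the other ARC arrays. The 5 endothelial markers averaged 7.75 in ARC Oil 2 and 7.69 in PVN Oil 2, against 9.43 to 10.61 in the other 16 arrays, and had the higher value with EB in the ARC in 5 of 5 (median 0.88, 0 called). The part of tissue content in the differences below was not tested.

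**Figure D2:**
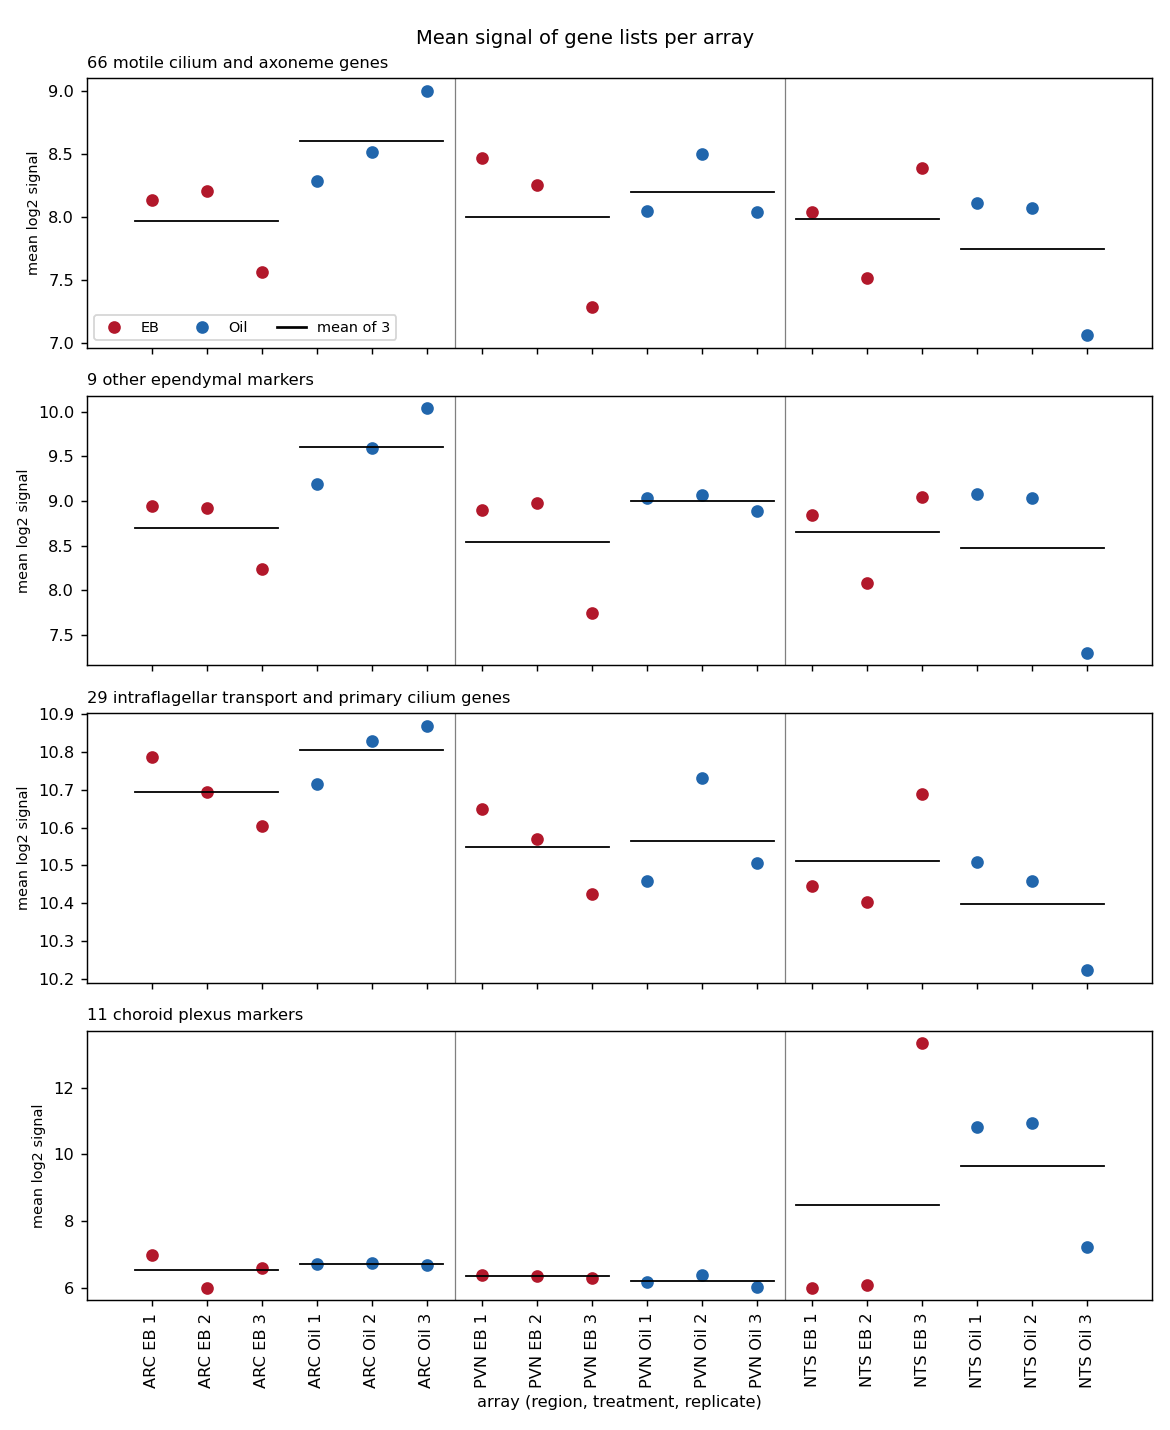
Mean log2 signal of 4 gene lists (panels) in each of the 18 arrays, EB samples in red and Oil samples in blue, with the mean of 3 samples as a line. The means of the 66 genes and the 9 other ependymal markers are lowest in ARC EB 3, PVN EB 3 and NTS Oil 3. The mean of the intraflagellar transport genes stays between 10.22 and 10.87, and that of the choroid plexus markers is high in NTS EB 3, NTS Oil 1 and NTS Oil 2.

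The first comparison asked which of these genes EB changed in the ARC. Some axoneme genes were called lower with EB there before adjustment, and none after it. Where a change of at least 2-fold with an unadjusted p of at most 0.05 was called, 13 of the 66 members fell and 0 rose, against 0.380% of all gene probe sets called lower and 0.0992% called higher (limma). They were Cfap45, Cfap52, Cfap77, Cfap95, Cfap161, Saxo4, Tekt1 and Tekt2 of the tektin class, Spag6l and Spag16 of the central apparatus, the radial spoke gene Cfap206, the intermediate chain Dnai1 and Drc7. The EB value was the lower one in 56 of the 66 members and their median difference was -0.55, against 0.008 over all gene probe sets. No member passed Benjamini-Hochberg adjustment over the 23188 probe sets (adjusted p = 0.852 for each of the 13), and neither did any other gene probe set. An unadjusted p of at most 0.05 was reached by 24 members, against 5.66% of all gene probe sets.

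Foxj1, the forkhead factor at the head of the program, had 7.64, 8.01 and 7.76 in ARC EB samples, against 8.50, 8.47 and 9.02 in ARC Oil samples. All 3 EB samples lay under all 3 Oil samples. The difference was -0.86 (SE 0.19, unadjusted p = 0.00239 by limma), or 1.81-fold, short of the 2-fold threshold.

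Saxo4, a microtubule-stabilizing protein of the axoneme, had the widest difference in the ARC, with 8.75, 10.63 and 7.92 in EB samples, against 10.79, 11.02 and 11.63 in Oil samples. The groups did not overlap, though EB 2 lay close to the lowest Oil sample. The difference was -2.05 (SE 0.63, 4.13-fold, unadjusted p = 0.0126 by limma). Cfap161, a microtubule inner protein, had 9.54, 9.84 and 7.76 in EB samples, against 10.27, 10.63 and 11.80 in Oil samples. EB 3 was far below the others and Oil 3 far above. The difference was -1.85 (SE 0.60, 3.61-fold, unadjusted p = 0.0161 by limma).

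Cfap95, Cfap45 and Cfap77, further microtubule inner proteins, also did not overlap between the groups. Cfap95 had 8.24, 8.60 and 6.27 in EB samples, against 8.85, 9.10 and 10.48 in Oil samples (3.42-fold lower, difference -1.78, and -1.06 without ARC EB 3, where it was not called). Cfap45 had 8.10, 8.22 and 6.96 in EB samples, against 8.68, 9.07 and 9.85 in Oil samples (2.71-fold lower). Cfap77 had 9.06, 9.65 and 8.52 in EB samples, against 10.28, 9.89 and 11.03 in Oil samples (2.50-fold lower). In each of these genes the 3 EB samples lay under the 3 Oil samples, with EB 3 lowest and Oil 3 highest. EB 3 was below background for Cfap95 and Cfap45, so their fold changes rest partly on signal under the detection level.

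Spag6l, of the central apparatus, had 10.19, 11.28 and 9.45 in EB samples, against 11.29, 11.31 and 12.43 in Oil samples (2.58-fold lower). EB 2 and the lowest Oil sample were nearly equal. Dnai1, an outer arm intermediate chain, had 9.08, 8.93 and 7.24 in EB samples, against 9.37, 9.35 and 10.71 in Oil samples (2.63-fold lower). Its EB 3 value was below background. Tekt1, a tektin, had 8.28, 7.57 and 6.60 in EB samples, against 8.05, 8.93 and 9.17 in Oil samples (2.35-fold lower), and here EB 1 lay above Oil 1. Tekt2 (2.09-fold lower) did not overlap between the groups, and Drc7 (2.18-fold lower) did. Of the 3 EB samples, 1 was above background for Tekt1, 1 for Drc7 and 2 for Tekt2. With values below background raised to it, a setting chosen after seeing the data, these genes were 1.90-fold (Tekt1), 1.93-fold (Drc7) and 1.99-fold (Tekt2) lower, under the 2-fold threshold. That setting left 7 members called (Saxo4, Cfap161, Cfap95, Cfap45, Cfap77, Spag6l and Dnai1), against 0.216% of all gene probe sets called lower. In it 39 of 66 members were lower with EB, with a median of -0.30. By construction, the 17 members below background in all 18 arrays then took the background medians of the arrays. That median was 6.74 in ARC Oil 1, against 7.50 to 7.60 in the other ARC arrays. The direction of these 17 was thus fixed in advance, and the count of 39 partly follows from the setting.

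In 3 of the 13 genes at least 1 group was below background. Cfap206, which anchors a radial spoke in the ciliate Tetrahymena, had 6.82, 6.47 and 5.33 in EB samples, all below background, against 7.69, 7.38 and 9.36 in Oil samples, of which Oil 2 was below background, and was at least 1.49-fold lower. That bound sets the Oil mean against the lowest detectable signal of each EB array. It rests on Oil 3, since Oil 1 lay close to the EB background medians (7.50 to 7.60) and Oil 2 under them. The measured means differed by -1.94 (SE 0.57, unadjusted p = 0.0106 by limma). Cfap52 was below background in the 3 EB samples (6.07, 6.65 and 5.73) and had 6.46, 7.27 and 7.93 in Oil samples, of which Oil 3 alone was above background. Spag16 was below background in all 18 arrays, so its call rests on signal under the detection level. Tekt3, a tektin also below background in all 18 arrays, had the smallest unadjusted p of the members in the ARC (0.000808 by limma) and, at 1.89-fold lower, was not called.

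By class, the difference in the ARC was lower with EB in 19 of 21 tektins and microtubule proteins (8 called), 12 of 13 dynein assembly factors (0 called), 5 of 5 intermediate chains (1 called), 5 of 6 radial spoke genes (1 called), 4 of 4 genes of the nexin-dynein regulatory complex (1 called) and 4 of 4 of the central apparatus (2 called). It was lower in 3 of 6 other cilium genes and 2 of 5 sperm associated antigens, with 0 called in either. Dnaaf11, an assembly factor that was not called, had 8.83, 8.67 and 8.19 in EB samples, against 8.89, 9.09 and 10.25 in Oil samples. The groups of 23 members did not overlap with EB lower (5.43% of all gene probe sets), and those of 2 members, Cfap68 and Cfap97d1, with EB higher (5.77% of all). An exact permutation test of 3 against 3 samples cannot give a p under 0.1 for any single gene.

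**Figure D3:**
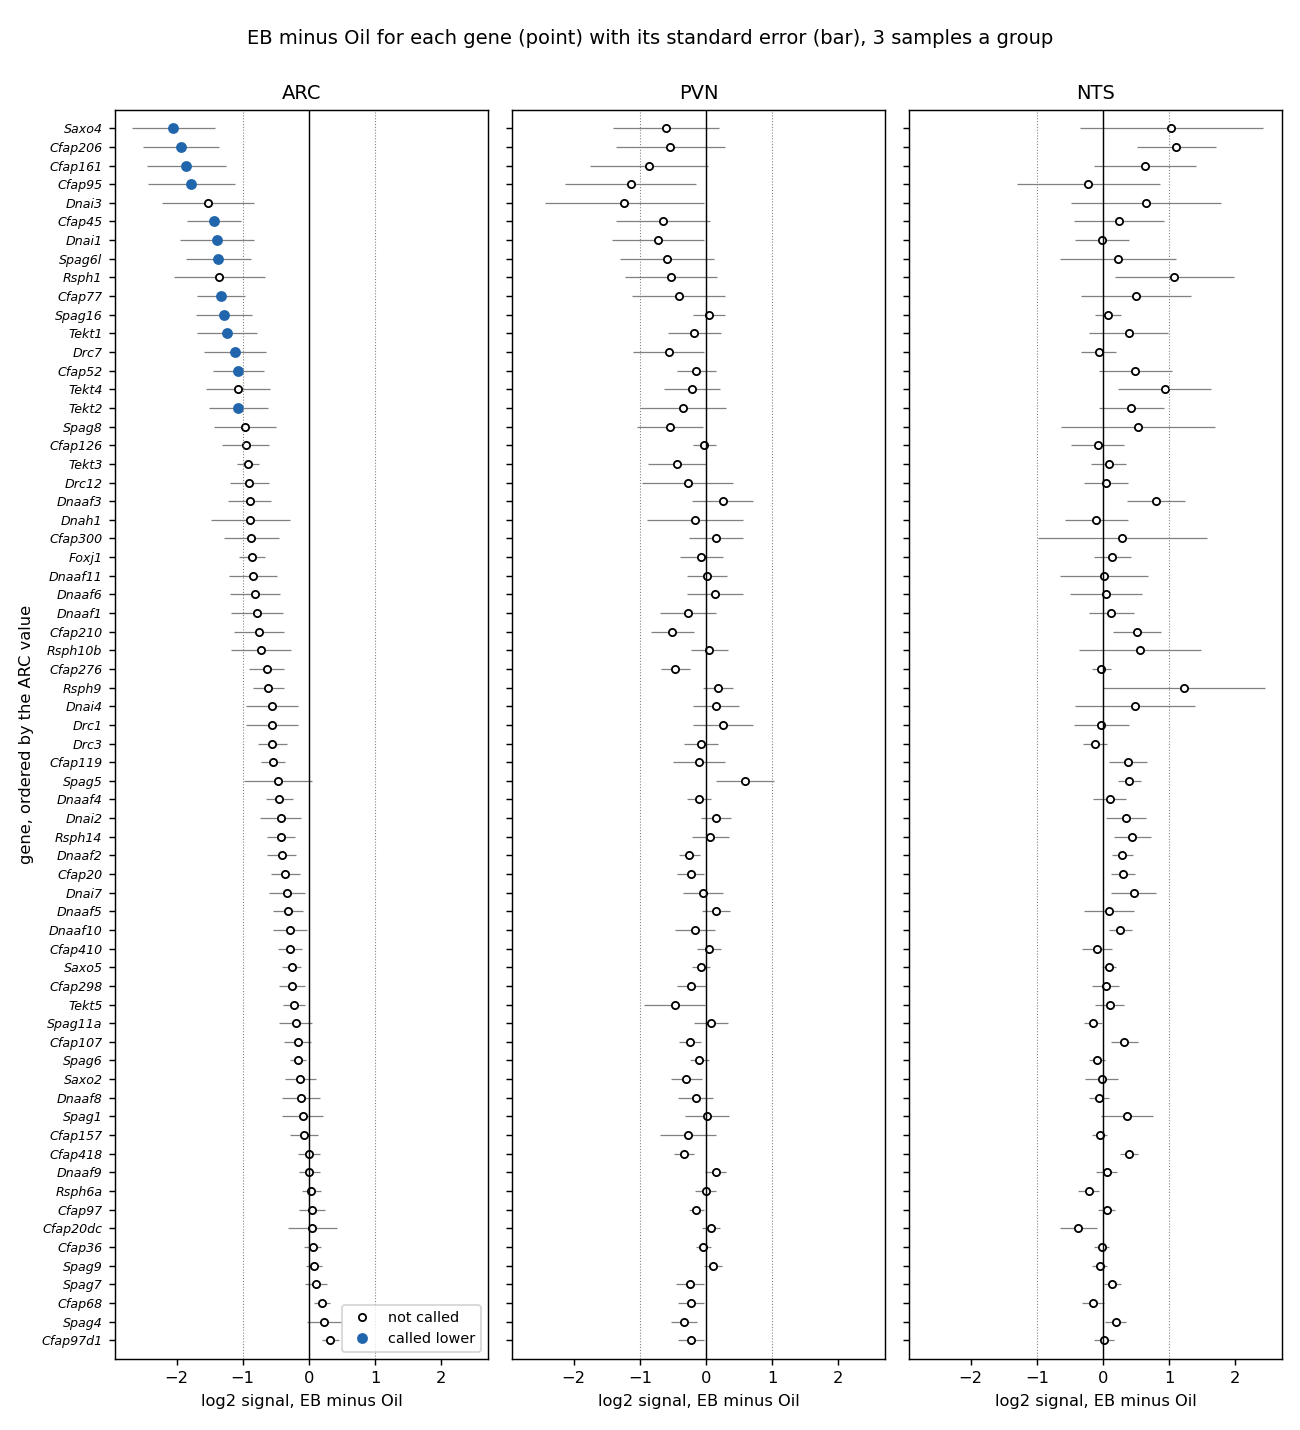
EB minus Oil log2 signal of each of the 66 genes (rows, ordered by the ARC value), with a panel each for ARC, PVN and NTS, the standard error as a bar and the 13 genes called lower filled. The ARC points lie left of 0 in 56 genes, the PVN points in 47 and the NTS points in 19.

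The lists outside the rule gave the following in the same fit. Of the 9 ependymal markers, 9 had the lower value with EB and 2 were called lower (Dynlrb2, a dynein light chain, and Riiad1), with a median of -0.72. Of the 35 other axoneme genes, 33 had the lower value and 3 were called (Dynlrb2, Lrguk and Pierce1), with a median of -0.74. The 29 intraflagellar transport and primary cilium genes had a median of -0.13 with 0 called, the 7 regulators -0.16 with 0 called, and the 10 tanycyte markers, of the ependymal cells without motile cilia, -0.52 with 0 called. The call count in the ARC depended on single arrays. It was 5 without ARC EB 3, 5 without ARC Oil 3 and 20 without ARC Oil 1. Of all gene probe sets, 0.211%, 0.371% and 0.707% were called lower in those fits, against 0.380% with no sample left out. The lower value was with EB in 54, 50 and 58 of the 66 members in those fits. Without ARC EB 3 the difference was -1.46 for Saxo4, -1.21 for Cfap161 and -0.80 for Dnai1, and without ARC Oil 3 it was -0.68 for Drc7 and -0.66 for Tekt2. Saxo4, Cfap45, Cfap77 and Cfap206 were called whichever of the 6 ARC samples was left out. Without ARC EB 2 and 3, the arrays high in midbrain markers, 6 members were called lower, 3 of them among the 13. That fit has 1 EB sample, ARC EB 1, which is assumed to vary like the Oil samples.

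In the PVN, EB changed no member past the threshold. Called were 0 higher and 0 lower (0.151% and 0.181% of all gene probe sets), and 0 members reached an unadjusted p of 0.05, against 6.39% of all gene probe sets. The value with EB was lower in 47 of 66 members with a median of -0.17, and PVN EB 3 set that direction. Without it the median was 0.16 and 17 of 66 were lower, with 0 called. Without PVN Oil 1 and 3, the arrays high in midbrain markers, the median was -0.40 and 61 were lower, again with 0 called. That fit has 1 Oil sample, PVN Oil 2, which is assumed to vary like the EB samples.

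Dnai3, an inner arm intermediate chain, had the widest difference in the PVN, with 10.60, 10.24 and 5.60 in EB samples, against 9.64, 10.77 and 9.73 in Oil samples. PVN EB 3 was below background and the other EB samples lay within the Oil range. The difference was -1.24 (SE 1.20, unadjusted p = 0.335 by limma) and 0.37 without PVN EB 3. Foxj1 had 8.32, 7.95 and 6.98 in PVN EB samples, against 7.70, 8.09 and 7.67 in PVN Oil samples, and the groups overlapped. Not every member was low in PVN EB 3. Rsph9, a radial spoke head protein, had 11.25, 11.46 and 11.24 in PVN EB samples, against 11.05, 11.63 and 10.72 in PVN Oil samples.

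**Figure D4:**
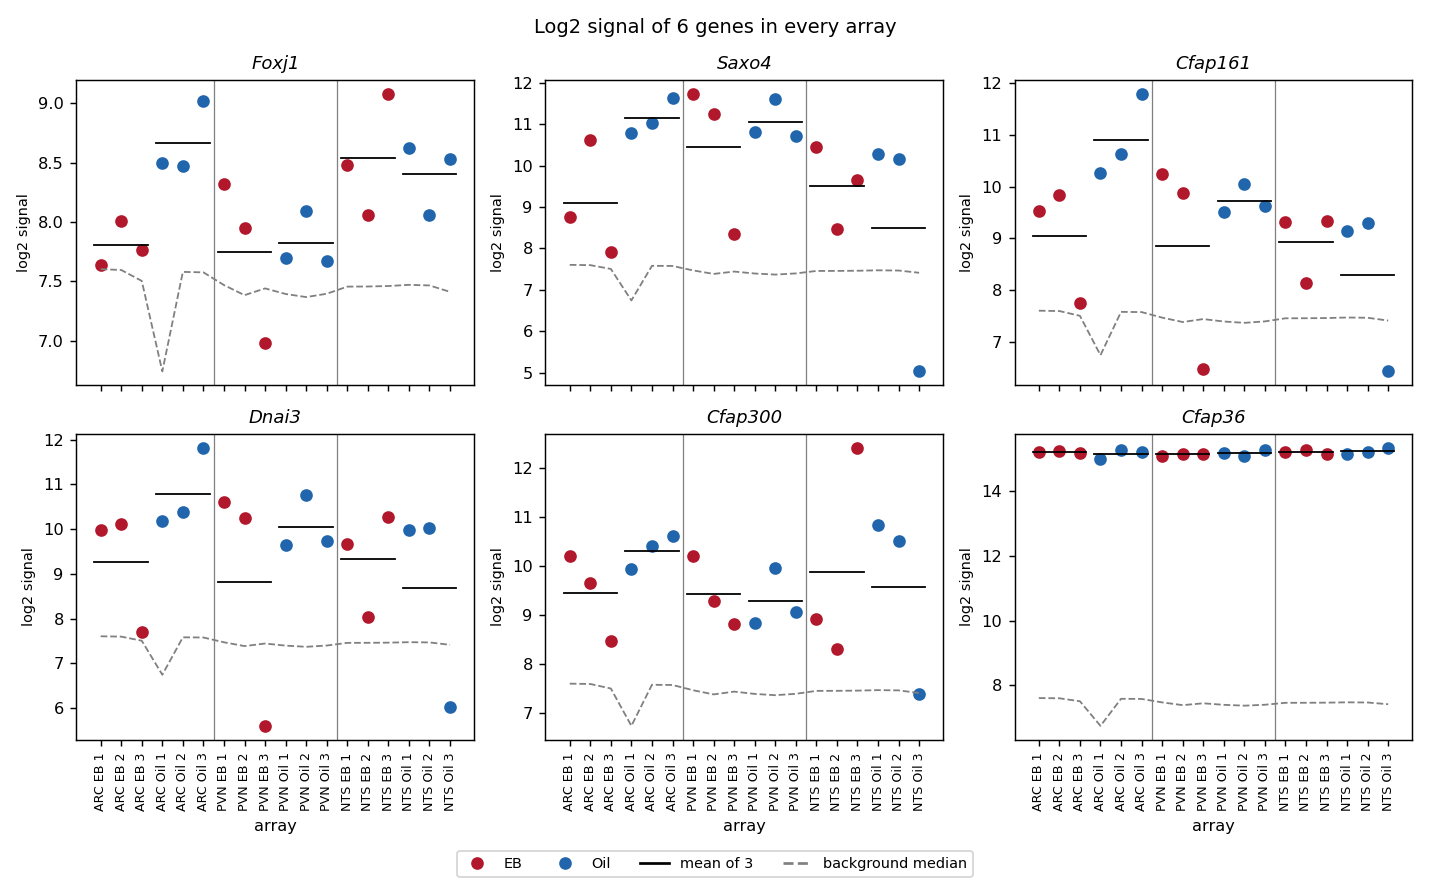
Log2 signal of Foxj1, Saxo4, Cfap161, Dnai3, Cfap300 and Cfap36 in the 18 arrays, EB samples in red and Oil samples in blue, with the mean of 3 samples as a line and the background median of each array as a dashed line. Saxo4, Cfap161 and Dnai3 drop in PVN EB 3 and NTS Oil 3, Cfap300 peaks in NTS EB 3, and Cfap36 stays between 14.98 and 15.33.

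In the NTS the threshold was likewise passed by 0 members in either direction (0.0474% of all gene probe sets called higher and 0.0302% lower). An unadjusted p of 0.05 was reached by 1 member (4.65% of all gene probe sets), Cfap418, which was higher with EB by 0.40 (unadjusted p = 0.0232 by limma). The value with EB was higher in 47 of 66 members with a median of 0.13, and NTS Oil 3 set that direction. Without it 39 of 66 members were lower with EB and the median was -0.05. Rsph9 had the widest difference, with 8.67, 8.37 and 11.52 in EB samples, against 9.46, 9.65 and 5.77 in Oil samples. Its 2 extreme samples, NTS EB 3 and NTS Oil 3, lay in opposite groups. The difference was 1.23 (SE 1.23, unadjusted p = 0.352 by limma) and -0.04 without NTS Oil 3.

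Some members were high in the array with the most choroid plexus signal. Cfap300, a dynein assembly factor, had 8.91, 8.31 and 12.40 in NTS EB samples, against 10.83, 10.51 and 7.39 in NTS Oil samples, so that its 3 highest NTS samples were those with high choroid plexus markers. Spag8, a microtubule inner protein, had 8.23, 6.71 and 10.55 in NTS EB samples, against 8.97, 9.07 and 5.87 in NTS Oil samples. Cfap52 had 6.88, 6.45 and 8.48 in NTS EB samples, against 7.22, 7.05 and 6.08 in NTS Oil samples. The EB and Oil groups overlapped in each. Without NTS EB 3 and NTS Oil 1 and 2, the 3 arrays high in choroid plexus markers, 16 members were called higher, where 2.20% of all gene probe sets were. That fit has 1 Oil sample, NTS Oil 3, which is assumed to vary like the EB samples. Foxj1 was not low in NTS Oil 3, with 8.48, 8.06 and 9.08 in NTS EB samples, against 8.62, 8.06 and 8.53 in NTS Oil samples.

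The EB effects of the regions were set against each other in 1 fit of the 18 arrays (limma). Between the ARC and the NTS, 6 members had a lower EB effect in the ARC under the same rule as within a region, against 0.440% of all gene probe sets. By limma they were Cfap206 (-3.05, unadjusted p = 0.0161), Tekt4 (-2.01, unadjusted p = 0.0424), Dnaaf3 (-1.70, unadjusted p = 0.0239), Cfap52 (-1.56, unadjusted p = 0.0389), Spag16 (-1.36, unadjusted p = 0.0142) and Cfap210 (-1.27, unadjusted p = 0.0436). Between the ARC and the PVN, Spag16 alone was called (-1.33, unadjusted p = 0.016 by limma), against 0.431% of all gene probe sets, and between the PVN and the NTS 0 members were called (0.138% of all higher and 0.121% lower). No adjusted p of these was under 0.797. Of the 18 arrays, 5 were above background for Cfap206, 13 for Tekt4, 9 for Dnaaf3, 4 for Cfap210, 2 for Cfap52 and 0 for Spag16, so these differences rest partly or wholly on signal under the detection level. With values below background raised to it, the difference between the ARC and the NTS was -1.24 for Tekt4 and -1.0 for Dnaaf3, which were still called, and -0.65 for Cfap206, which was not called, nor were Cfap52, Cfap210 and Spag16. The counts moved both ways with single arrays, and the share of all gene probe sets called in those fits was not counted. Between the ARC and the NTS, 1 member was called without ARC EB 3, 1 without ARC Oil 3, 2 without NTS EB 3 and 2 without NTS Oil 3, but 10 without ARC Oil 1, 11 without NTS Oil 1 and 14 without NTS EB 2. Between the ARC and the PVN, 5 were called without PVN EB 3, and with a block for treatment and replicate number 3 were called between the ARC and the NTS. Averaged over the 3 regions, the EB effect of 0 members was called (0.0216% of all in each direction), with a median of -0.13.

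The regions themselves were compared over EB and Oil samples together, with calls at an adjusted p of 0.05 or less and 2-fold or more. For ARC minus NTS, called higher were 6 members, Rsph9, Dnaaf1, Dnaaf11, Drc1, Drc7 and Cfap45 (4.15% of all gene probe sets) and called lower 1, Spag1 (2.98% of all). The ARC value was the higher one in 50 of 66 members, and the mean of all members was 8.28 ± 0.47 for ARC samples, 8.10 ± 0.45 for PVN samples and 7.86 ± 0.49 for NTS samples (SD, n = 6 each), so that the regions overlapped in it.

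Rsph9 differed most. It lay between 11.05 and 12.29 in the ARC with a median of 11.68, between 10.72 and 11.63 in the PVN with a median of 11.24, and between 5.77 and 11.52 in the NTS with a median of 9.06. The highest NTS sample, NTS EB 3, was the only one within the range of the other regions. The difference was 2.75 for ARC minus NTS (SE 0.60, 6.71-fold, adjusted p = 0.00183 by limma) and 2.32 for PVN minus NTS (SE 0.60, 4.99-fold, adjusted p = 0.00681 by limma). The ARC and the PVN did not differ past the threshold (0.43, SE 0.60).

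Of the 13 dynein assembly factors, 2 were called higher and 1 lower for ARC minus NTS, and 10 were not called. An adjusted p of 0.05 by limma was passed by 5 of the 13, whatever the fold, against 44.3% of all gene probe sets. Dnaaf1 was below background in each NTS array (6.08 to 7.39) and lay between 7.09 and 9.27 in the ARC, at least 1.47-fold higher (adjusted p = 0.00448 by limma). Dnaaf11 averaged 8.99 ± 0.69 in the ARC and 7.83 ± 0.96 in the NTS (SD, n = 6 each), 2.22-fold higher, with 4 of 6 NTS arrays above background (1.84-fold with values below background raised to it). Spag1, whose product also assembles dynein arms, averaged 9.44 ± 0.44 in the ARC and 10.56 ± 0.59 in the NTS (SD, n = 6 each), 2.18-fold lower (adjusted p = 0.0047 by limma). It was lower in the PVN too, at 9.44 ± 0.47 (-1.13 for PVN minus NTS, adjusted p = 0.00559 by limma). Dnaaf4 was higher in the ARC than in the NTS without overlap of the samples, at 8.92 ± 0.34 and 8.02 ± 0.34 (SD, n = 6 each), but 1.87-fold and so under the fold threshold.

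**Figure D5:**
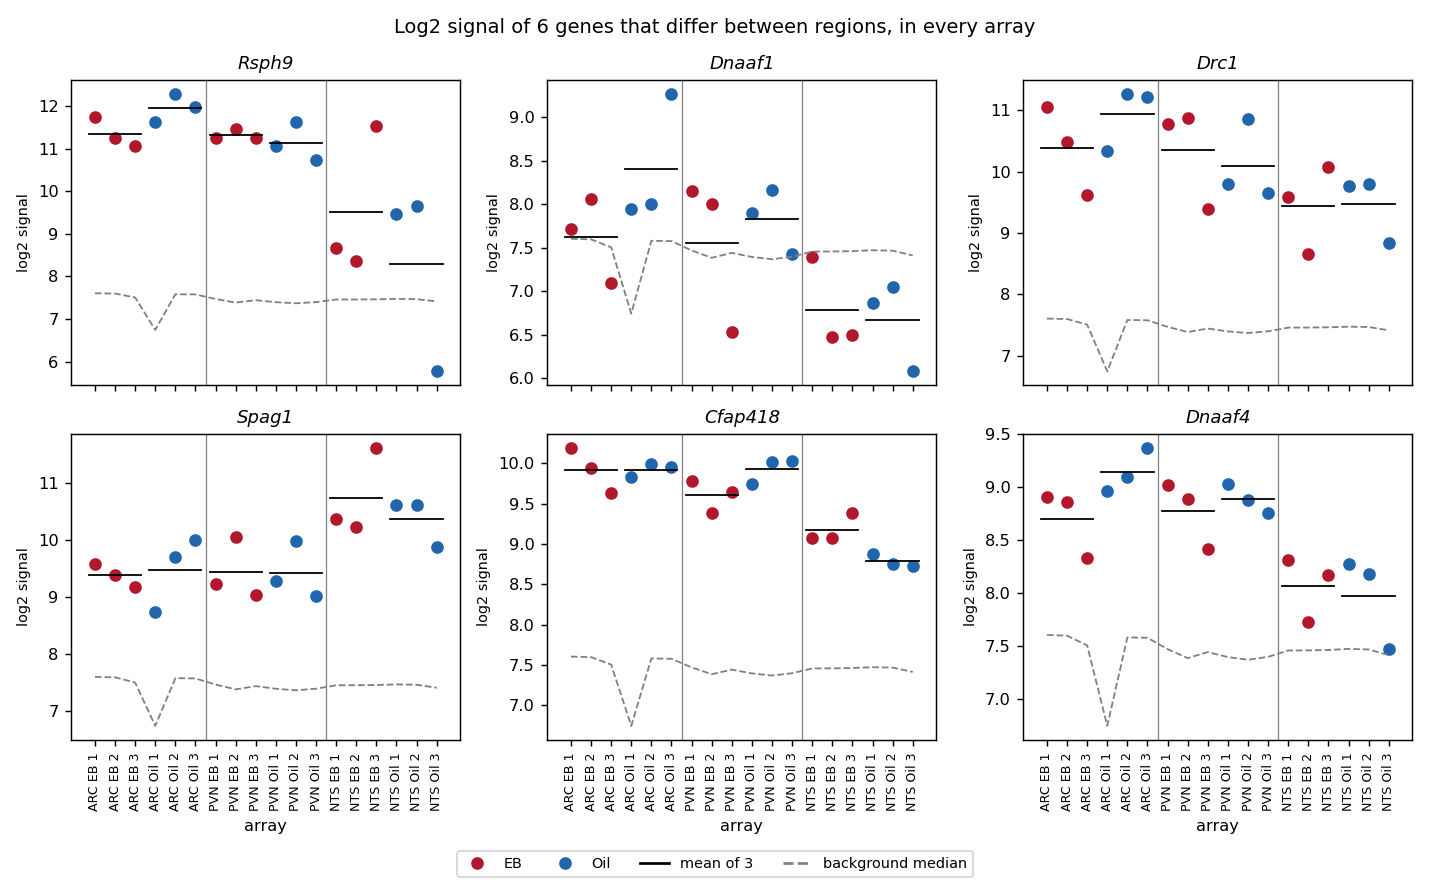
Log2 signal of 6 genes that differ between regions in the 18 arrays, EB samples in red and Oil samples in blue, with the mean of 3 samples as a line and the background median of each array as a dashed line. Rsph9, Dnaaf1, Drc1, Cfap418 and Dnaaf4 are lower and Spag1 is higher in the NTS, and Rsph9 in NTS EB 3 (11.52) lies within the range of the other regions.

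The other members called for ARC minus NTS were Cfap45 (3.05-fold higher, adjusted p = 0.0186), Drc1 (2.31-fold, adjusted p = 0.0112) and Drc7 (2.01-fold, adjusted p = 0.0355, limma). Of the 6 NTS arrays, 1 was above background for Cfap45 and 2 for Drc7, and with values below background raised to it the differences were 2.10-fold for Cfap45 and 1.74-fold for Drc7, the second under the threshold. Drc1 and Drc7 belong to the nexin-dynein regulatory complex, and Drc7 was also higher in the PVN than in the NTS (2.19-fold, adjusted p = 0.0239 by limma, and 1.94-fold with values below background raised to it). For PVN minus NTS, 2 members were called higher and 1 lower (2.60% and 2.95% of all gene probe sets). Without PVN EB 3 the calls of this contrast came to 9, with the share of all gene probe sets not counted. For ARC minus PVN, 0 members were called (1.88% of all higher and 0.349% lower).

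Whatever the fold, 18 members passed an adjusted p of 0.05 for ARC minus NTS, among them the 7 called (44.3% of all gene probe sets passed), 13 for PVN minus NTS (37.5% of all) and 2 for ARC minus PVN (21.4% of all). Cfap418, whose human counterpart is linked to retinal degeneration, had the smallest p, at 9.92 ± 0.18 in the ARC and 8.98 ± 0.25 in the NTS (SD, n = 6 each), 1.92-fold higher (adjusted p = 9.04e-06 by limma), with no overlap of the samples. Foxj1 went the other way from most members. It averaged 7.79 ± 0.47 in the PVN and 8.47 ± 0.38 in the NTS (SD, n = 6 each), a difference of -0.68 (1.60-fold, adjusted p = 0.0216 by limma), and 8.23 ± 0.52 in the ARC, which did not differ from the NTS past the threshold (-0.24, SE 0.22). Spag6, Rsph6a and Saxo5 also passed, but were below background in all 18 arrays (for ARC minus PVN, Rsph6a differed by 0.57 and Saxo5 by 0.28).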

How the data were processed

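Signals were measured on 18 Rat Clariom S Pico arrays. Per the methods, the array service background-adjusted, normalized and log2-transformed the signals, and the authors deposited those log2 values for 24834 probe sets, 1646 of them controls and left out of tests. Transcriptome Analysis Console is named in the submitters' processing notes. Genes were named from the platform annotation; 8139 gene probe sets had no or several symbols. Members, roles and gene lists were chosen with earlier results of these data known.

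The 23188 gene probe sets were fitted without a filter on low values with limma 3.58.1 (lmFit, eBayes; R 4.3.3), EB minus Oil within each region, and as 6 group means over the 18 arrays for regions and for differences of the EB effect. Benjamini-Hochberg adjustment covered all gene probe sets. Named were Foxj1, the members called, the brightest of each role, the 4 members with the smallest p of each region contrast and the widest EB difference of each region; further genes were chosen after their values were seen. The script was tested on simulated data. Alternatives were leaving out each sample, 1 fit of 18 arrays, quantile normalization, median centring, a filter on dim probe sets, array weights (statmod 1.5.0), a replicate block, values below background raised to it, the mean of probe sets and axoneme genes only. The last 2 reuse the same fit and test nothing further. Each member had 1 probe set, and the axoneme setting only leaves members out of the count. The 3 samples a group limit the precision. The p-values weigh a difference against the spread between these samples, moderated over all gene probe sets. In the fits of 18 arrays, samples that share rats counted as separate, so those p-values do not account for the animals. Figures were drawn with matplotlib 3.10.9 in Python 3.11.15.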

Additional observations from a re-analysis of the deposited data

Results flagged for a closer look

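The labelled groups hold 3 samples each and are too small for a test of outlying samples, so the 6 arrays of a region were searched for 1 sample set apart from the rest (Dixon's test), which chance does in about 1 in 20 sets. Over the 66 members and 3 regions, 198 sets, there were 21 such samples, of which 16 were PVN EB 3. Among the named genes, the signal in PVN EB 3 was low for Cfap161 (6.47, next 9.51), Cfap206 (4.39, next 6.64), Cfap45 (5.55, next 7.72), Cfap77 (7.74, next 9.84), Cfap95 (5.43, next 8.70), Dnai3 (5.60, next 9.64), Saxo4 (8.35, next 10.72), Spag6 (4.67, next 4.98) and Spag6l (8.67, next 10.82). Saxo4 was low in NTS Oil 3 (5.03, next 8.47), and Cfap36 was lowest in ARC Oil 1 by a small margin (14.98, next 15.19).

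Without a fold threshold, the EB effect of 10 members differed between the ARC and the NTS (limma, unadjusted p up to 0.05). Among all 23188 gene probe sets 1415 did. The 2-fold rule left 6 members, with -3.05 in Cfap206, -2.01 in Tekt4, -1.70 in Dnaaf3, -1.56 in Cfap52, -1.36 in Spag16 and -1.27 in Cfap210. For the ARC and the PVN, 2 members (1164 of all gene probe sets) met the p threshold, and the 2-fold rule left Spag16 (-1.33). None passed adjustment over all gene probe sets, Spag16 was below background throughout, and Cfap206, Cfap52 and Cfap210 were above it in 5, 2 and 4 of the 18 arrays.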

How the results depend on the processing

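The 13 members called lower with EB in the ARC became 5 in 1 fit of the 18 arrays, 8 with a filter on dim probe sets (44 members kept), 7 with a replicate block, 7 with values below background raised to it and 6 without ARC EB 2 and 3, the last 2 chosen after seeing the data. Quantile normalization and median centring each gave 11 and array weights 19. The share of all gene probe sets called lower moved too, from 0.380%. It was 0.25% in 1 fit of the 18 arrays, 0.417% of those kept by the filter, 0.242% with the block and 0.216% with values raised. Quantile normalization gave 0.306%, median centring 0.298% and array weights 0.595%. Such shares were not counted for the contrasts over 18 arrays under these settings. Leaving out 1 sample gave 5 to 20 in the ARC, 0 to 1 called higher in the NTS, 5 to 9 called for ARC minus NTS, 2 to 9 for PVN minus NTS, and, for the difference of the EB effect, 1 to 14 for ARC minus NTS, 0 to 5 for ARC minus PVN, 0 to 1 for PVN minus NTS and 0 to 2 for the average. Without the 3 NTS arrays high in choroid plexus markers, chosen after seeing the data, 16 members were called higher. For the difference of the EB effect, array weights gave 8 for ARC minus PVN, 3 for ARC minus NTS, 1 for PVN minus NTS and 1 for the average, the filter 0 for ARC minus PVN the replicate block 3 for ARC minus NTS and raising values to background 2 for ARC minus PVN. The direction turned for Dnai3 in the PVN, which lay between -2.13 and 0.37 when 1 sample was left out (0.37 without PVN EB 3), and for Rsph9 in the NTS, which lay between -0.036 (without NTS Oil 3) and 1.91 and was -0.21 with array weights. Raised to background, Cfap52 (0.15), Spag16 (0.27) and Tekt3 (0.27) turned in the ARC, where by construction most or all of their values became the background medians of the arrays. The cause of the other changes was not tested.

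For the pairing, deviations from the group mean were correlated over gene probe sets. For EB and Oil samples of 1 region with the same number the correlation lay between -0.46 and 0.13. For samples of the same treatment and number it lay between 0.018 and 0.42 for ARC and PVN, -0.11 and 0.20 for ARC and NTS, and -0.022 and 0.17 for PVN and NTS. Not every pair passed 0.1 in any of these, so whether a number marks 1 rat is not settled. The block left 7 members called for ARC minus NTS, 3 for PVN minus NTS and 0 for ARC minus PVN. It took the 13 members called lower with EB in the ARC to 7. For the difference of the EB effect between the ARC and the NTS it gave 3 called members, against 6 without it. No other count of calls moved by over 1.5 times with the block. Signal over background limits the 17 members below it in every array, whose differences are of unknown size.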

Other observations

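Spag5, a protein of the mitotic spindle that shares only its prefix with the axoneme genes, was high in 2 arrays of different regions and treatments. It had 7.93 in PVN EB 3 and 7.78 in ARC Oil 1, and between 5.58 and 6.95 in the other 16 arrays. Cfap20dc was highest in NTS Oil 3 (9.97), the array in which 43 members were lowest of the NTS arrays, and between 8.65 and 9.42 in the other NTS arrays. Tekt5, below background in every array, was highest of its region in PVN Oil 1 (6.15) and PVN EB 3 (6.09) and lowest in PVN EB 1 (4.21), where 24 other members were highest.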
